A study of Rattus norvegicus with 25 samples.

Results

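Levels of 10 odontoblast and dental mesenchyme genes were followed in rat molars that had been extracted, dried and put back. The genes were Dspp, Nes, Dlx3, Wnt10a, Wnt6, Msx1, Msx2, Barx1, Lhx6 and Lhx8, 10 of the 16881 gene symbols in the count files. They were taken by name as the dentin matrix gene and as genes of odontoblasts and dental mesenchyme, and each had 1 entry in the files. Earlier results of these data were known when they were chosen. All 10 were measured, and 9 of them were among the 11492 genes abundant enough to test. Dspp was too low in the replanted libraries.

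Sprague–Dawley rats lost the maxillary first molar to extraction, the tooth was left dry, and it was then replanted. In delayed replantation (DR) the tooth dried for 60 min and in immediate replantation (IR) for 5 min. The groups were DR at day 7, IR at day 7, DR at day 3 and IR at day 3 after replantation, each with 6 libraries, and a single library labelled NT, whose treatment is given as control. The tissue of all 25 libraries was tooth and periodontal ligament, and all carry an age of postnatal day 21. It is not said at which step that age applies, and NT may be younger or older than the replanted animals. No genetic change is named for any group, and separate animals are not stated, so that p-values cover the spread between libraries, which may be technical.

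Odontoblasts are the cells that line the dental pulp and lay down dentin. They arise from the neural crest-derived mesenchyme of the tooth germ, which is patterned by homeobox transcription factors and exchanges Wnt and BMP signals with the dental epithelium. In a formed tooth the odontoblast layer persists at the edge of the pulp and goes on adding dentin slowly.

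RNA was counted with QuantSeq, which sequences the 3′ ends of transcripts, so that counts do not scale with transcript length. Depth was 5.04 to 8.81 M counts in the replanted libraries and 8.55 M in NT, and ribosomal RNA entries took 9.73% to 33.8% of the counts in replanted libraries and 2.91% in NT. Levels are given as CPM, counts scaled to a common library size after TMM adjustment. In DR day 3 replicate 3 and IR day 3 replicate 6 the 10 genes together had 30 and 16 counts, against 118 to 1022 in the other 22 replanted libraries, and both stood apart for 9 of the 10 genes, which were among their 4 lowest libraries. In bulk tissue, fewer cells of a type and less RNA per cell cannot be told apart.

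Dspp encodes the precursor of dentin sialoprotein and dentin phosphoprotein, the main non-collagenous proteins of dentin, and is the defining transcript of odontoblasts. In the replanted libraries its median was 0.21 CPM and its mean 3.00 ± 8.70 CPM (SD, n = 24), against 1070 CPM in NT, 356 times that mean. The NT level rests on 9035 counts (95% exact Poisson interval 8850 to 9220, counting error only), or 0.106% of that library. The log2 ratio of replanted mean to NT, with 1 CPM added to each, was -8.06. This was the lowest of 10804 genes that had at least 10 counts in NT. The next lowest, Car1, stood at -5.32. NT is 1 library, so this difference has no replicate check on the NT side and no test.

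The replanted libraries did not hold Dspp evenly. Of the 24, 9 had no count, 6 had 1 to 3 counts, 7 had 4 to 22 counts and 2 had over 100. Counts in DR day 7 libraries ran from 0 through a median of 1.5 to 17, and in IR day 7 libraries from 0 through 7.5 to 22. Counts in DR day 3 libraries ran from 0 through a median of 2 to 264, and in IR day 3 libraries from 0 through 1 to 14. The 2 high libraries were DR day 3 replicates 4 and 5, with 264 and 138 counts (39.3 and 19.9 CPM), and together 402 of the Dspp counts after replantation, the other 22 libraries having 22 counts at most. NT stood 27.2 times above the highest of the 24 and 388 times above the highest of the other 22, which was 2.76 CPM. A library with no count allows a level of 3 counts, at most 0.621 CPM among these libraries. Without a filter on low counts, the Dspp difference of DR over IR at day 3 was 4.24 in log2 (SE 1.57, edgeR adjusted p = 0.968) and rested on those 2 libraries.

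**Figure D1:**
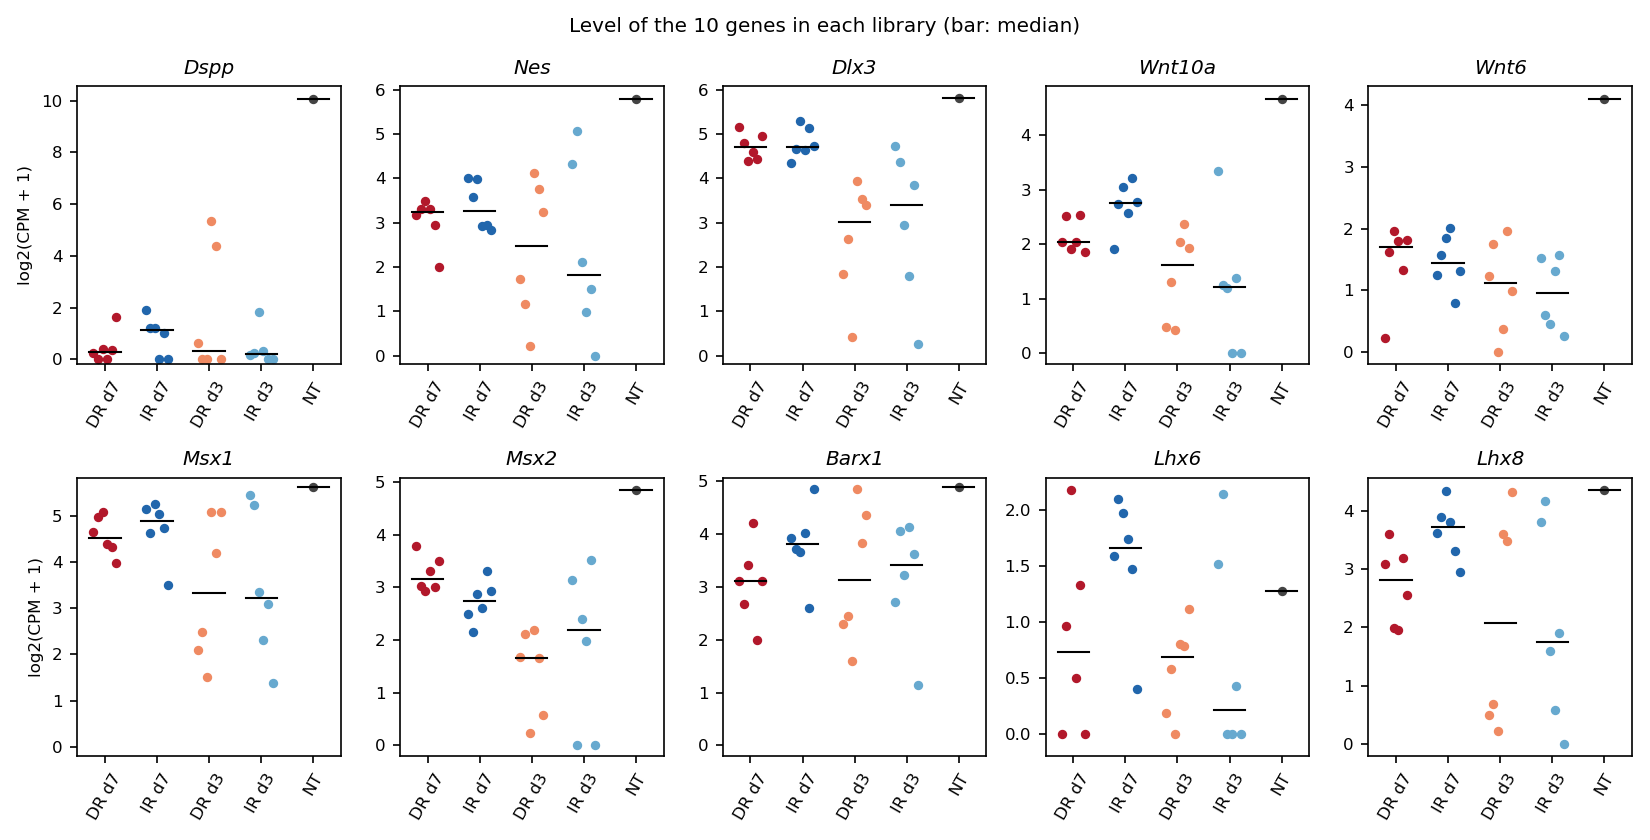
Level of each gene as log2(CPM + 1) in each library, 1 point per library and a bar at the group median, for DR day 7, IR day 7, DR day 3, IR day 3 (6 libraries each) and NT (1 library). Dspp sits near 0 after replantation apart from 2 DR day 3 libraries, Dlx3 at day 7 lies between 19.4 and 38.3 CPM, and the day 3 libraries are the most spread.

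These promoters are printed because they belong to the gene with the deepest difference from NT and to a pair of Wnt genes that lie next to each other. Sequences are from RefSeq, build GRCr8, 250 bases up to the transcript start in the direction of transcription, and 8 of the 10 genes had an entry. Capitals mark CCAAT, the box that binds the NF-Y factor, searched on both strands. Coordinates are chr14:5876340-5876589 on the minus strand for Dspp, chr9:83778302-83778551 on the plus strand for Wnt6 and chr9:83798344-83798593 on the plus strand for Wnt10a.
Dspp: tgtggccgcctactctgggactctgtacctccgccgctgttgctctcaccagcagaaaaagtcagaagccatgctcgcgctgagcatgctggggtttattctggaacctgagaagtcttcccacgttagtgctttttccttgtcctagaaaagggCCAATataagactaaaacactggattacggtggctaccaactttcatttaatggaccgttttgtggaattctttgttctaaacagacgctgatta
Wnt6: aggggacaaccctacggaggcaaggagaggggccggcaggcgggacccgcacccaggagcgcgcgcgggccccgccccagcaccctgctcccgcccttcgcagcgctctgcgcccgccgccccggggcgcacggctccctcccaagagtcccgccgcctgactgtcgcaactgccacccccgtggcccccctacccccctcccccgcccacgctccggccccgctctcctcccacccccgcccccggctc
Wnt10a: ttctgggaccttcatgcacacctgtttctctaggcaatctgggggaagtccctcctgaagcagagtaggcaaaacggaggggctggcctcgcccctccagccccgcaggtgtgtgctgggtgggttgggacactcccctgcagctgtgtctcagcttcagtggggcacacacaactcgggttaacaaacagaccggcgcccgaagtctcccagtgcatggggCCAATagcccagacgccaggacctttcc
CCAAT occurred once each in the Dspp and Wnt10a windows and in none of Wnt6, and 34.0% of 33469 rat promoters of that length hold it. Msx1 held 2 matches and Msx2 3. The Msx core TAATTG (7.31% of promoters), the RUNX letters TGTGGT (14.5%) and the TCF/LEF letters TTCAAAG (4.68%) were in none of the 9 windows of these genes. G and C made up 47.2% of the Dspp window, 79.6% of the Wnt6 window and 61.2% of the Wnt10a window, against a median of 51.2% over all promoters. In the RefSeq gene table Dspp neighbours Dmp1, another gene of dentin and bone matrix, on chromosome 14, and no gene of the 10 overlaps a protein-coding neighbour.

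Beside Dspp, 8 further genes were lower in all 24 replanted libraries than in NT, which makes 9 of 10, against 9.1% of all tested genes. The tested genes leave out Dspp. Over the 10804 genes with at least 10 counts in NT, which include Dspp, the share was 10.6%. The exception was Lhx6. At least 4-fold lower in mean CPM + 1 were 5 of 10 (Dspp, Nes, Wnt10a, Wnt6 and Msx2), against 0.975% of tested genes. That share again leaves out Dspp, and it was not computed over the wider set. None of the 10 was at least 4-fold higher (3.73% of tested genes) or higher in all 24 libraries (6.06%). The median log2 ratio of replanted mean to NT was -1.88 over the 10 genes and 0.14 over all tested genes. When counts were scaled by the library total without ribosomal RNA entries, 6 of the 10 genes were lower in all 24 libraries, and by the plain total 7 were. With 5 CPM added in place of 1, 2 of the 10 were at least 4-fold lower. Shares over all tested genes were not computed for these alternatives, so their counts have no background to be read against.

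Nes encodes nestin, an intermediate filament protein of odontoblasts that is also made by endothelial, glial and muscle precursor cells. It was at 0 to 32.3 CPM after replantation (median 7.35, n = 24), against 54.4 CPM (460 counts) in NT. The ratio of means was -2.54 in log2, the 71st lowest of the 10804 genes. Within groups the lowest, median and highest were 3.00, 8.42 and 10.2 CPM in DR day 7 and 6.14, 8.80 and 15.0 CPM in IR day 7. In DR day 3 they were 0.170, 5.37 and 16.5 CPM and in IR day 3 0, 2.59 and 32.3 CPM. All 4 groups overlapped.

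Dlx3, a homeobox factor of odontoblasts and dental papilla that also acts in hair follicle and epidermis, was at 0.201 to 38.3 CPM in the replanted libraries (median 19.8) and 55.0 CPM (465 counts) in NT. Its groups were DR day 7 with 19.9, 25.1 and 34.7 CPM as lowest, median and highest, and IR day 7 with 19.4, 25 and 38.3 CPM. DR day 3 had 0.340, 7.40 and 14.3 CPM and IR day 3 had 0.201, 10 and 25.4 CPM. The 2 day 7 groups lay on top of each other, and every DR day 7 library was above every DR day 3 library. At day 7 Dlx3 was closer to NT than Dspp and Nes were, at log2 ratios of -1.06 in DR and -0.97 in IR, against -2.79 in DR and -2.19 in IR at day 3. Msx1 was closer still at day 7 (-1 in DR, -0.8 in IR), as was Lhx6, near its detection limit. Barx1 (-0.95) and Lhx8 (-0.63) were closer in IR but not in DR.

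Wnt10a and Wnt6 are secreted Wnt ligands. Wnt10a is made by dental epithelium and by odontoblasts and its loss causes missing or small teeth in people, and Wnt6 is made mainly by epithelium. Wnt10a ran from 0 through 2.96 to 9.18 CPM after replantation, against 24.3 CPM (205 counts) in NT. Wnt6 ran from 0 through 1.49 to 3.03 CPM, against 16.2 CPM (137 counts) in NT, a mean 10.5 times lower after replantation. After Dspp, this was the largest ratio of the 10 genes (log2 -2.76).

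In the replanted groups Wnt10a had 2.63, 3.12 and 4.79 CPM in DR day 7 and 2.76, 5.74 and 8.30 CPM in IR day 7 (lowest, median, highest). In DR day 3 it had 0.340, 2.15 and 4.17 CPM and in IR day 3 0, 1.33 and 9.18 CPM. The 9.18 CPM came from IR day 3 replicate 1, and the other 5 libraries of that group lay at or under 1.61 CPM. Wnt6 had medians of 2.27 CPM (DR) and 1.73 CPM (IR) at day 7, and of 1.18 CPM (DR) and 0.999 CPM (IR) at day 3, with ranges that overlapped in every pair of groups.

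Msx1 and Msx2 are homeobox repressors that mediate BMP signalling in the tooth germ. Msx1 is the mesenchymal member, needed for the tooth to pass the bud stage, and Msx2 acts in both epithelium and mesenchyme and in enamel formation. Msx1 was at 1.61 to 42.8 CPM after replantation (median 21.9) and at 48.4 CPM (409 counts) in NT. Its highest replanted library, in IR day 3, came within 1.13-fold of NT. Msx2 was at 0 to 12.7 CPM (median 4.87), against 27.7 CPM (234 counts) in NT.

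The pair differed in spread over the groups. Msx1 had 14.9, 22 and 33.2 CPM in DR day 7 and 10.3, 28.9 and 37.5 CPM in IR day 7, with 1.87, 11 and 33.2 CPM in DR day 3 and 1.61, 8.37 and 42.8 CPM in IR day 3. Msx2 had 6.64, 8.01 and 12.7 CPM in DR day 7 and 3.42, 5.71 and 8.89 CPM in IR day 7. In DR day 3 Msx2 had 0.170, 2.17 and 3.57 CPM, wholly below DR day 7, and in IR day 3 it had 0, 3.61 and 10.4 CPM, which overlapped IR day 7. Across the 24 libraries the Spearman correlation of Msx1 with Msx2 was 0.227, while that of Msx1 with Nes was 0.889.

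Barx1 marks molar-forming mesenchyme, and Lhx6 and Lhx8 are LIM-homeobox factors that act together in the mesenchyme of the molar field. Barx1 ran from 1.21 through 10.5 to 28.0 CPM after replantation, and NT had 28.6 CPM (242 counts). Lhx8 ran from 0 through 7.77 to 19.1 CPM, and NT had 19.4 CPM (164 counts). For both, the highest replanted library lay within 1.02-fold of NT, so that their place below NT in all 24 libraries was narrow. Lhx6 was near the detection limit throughout, at 0 to 3.54 CPM (median 0.731) after replantation and 1.42 CPM in NT, where 12 counts carry an interval of 6.2 to 21. It lay below NT in 15 of 24 libraries.

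By group, Barx1 had medians of 7.64 CPM (DR) and 13.2 CPM (IR) at day 7, and of 8.85 CPM (DR) and 9.81 CPM (IR) at day 3. Lhx8 had 2.90, 6.17 and 11.2 CPM in DR day 7 and 6.77, 12.1 and 19.1 CPM in IR day 7. In DR day 3 Lhx8 had 0.170, 5.35 and 19.0 CPM and in IR day 3 0, 2.40 and 17.0 CPM. Within DR day 3, replicates 1, 2 and 3 held 0.408, 0.621 and 0.170 CPM of Lhx8, and replicates 4, 5 and 6 held 11.2, 10.1 and 19.0 CPM. Lhx6 had medians of 0.681 CPM (DR) and 2.17 CPM (IR) at day 7, and of 0.608 CPM (DR) and 0.173 CPM (IR) at day 3.

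**Figure D2:**
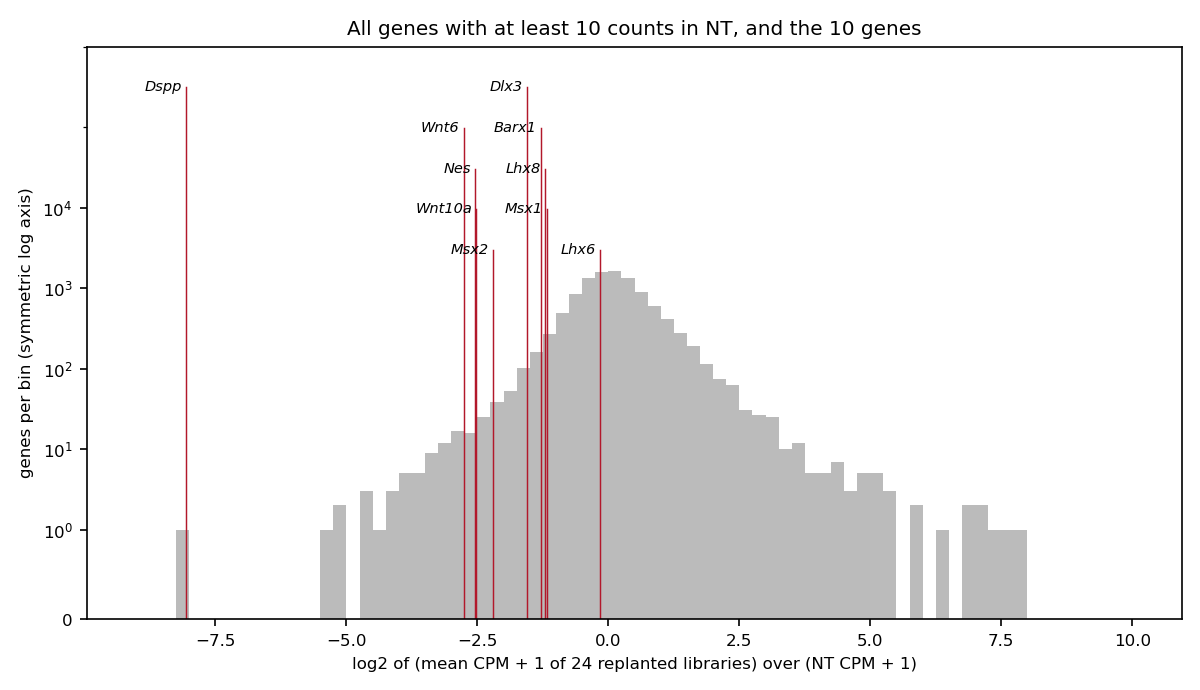
Number of genes (grey bars, symmetric log axis) at each log2 ratio of replanted mean CPM + 1 over NT CPM + 1, for the 10804 genes with at least 10 NT counts, with a red line for each of the 10 genes. Dspp stands alone at -8.06, 8 genes lie between -2.76 and -1.17, and Lhx6 lies at -0.16.

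Genes of related function were set against NT in the same way. Of 12 dentin and bone matrix genes, 6 were lower in all 24 libraries and 3 at least 4-fold lower, with a median log2 ratio of -1.14. These 3 were Bglap (osteocalcin, -3.32), Phex (an endopeptidase of odontoblasts and osteocytes, -2.43) and Col1a1 (-2.12). Dmp1, the neighbour of Dspp, which osteocytes make as well, had medians of 492 CPM (DR) and 397 CPM (IR) at day 7 and of 263 CPM (DR) and 332 CPM (IR) at day 3, against 649 CPM in NT (log2 ratio -0.68). Dspp and Dmp1 thus stood far apart in the same libraries. Of 11 dental mesenchyme regulators, 4 were lower in all 24 libraries and none was 4-fold lower, with a median of -0.66. Of 11 tooth signals, 4 were lower in all 24 and none 4-fold lower, with a median of -0.49, and the activin subunit gene Inhba (3.01) and Bmp2 (2.29) were at least 4-fold higher after replantation.

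Markers of other tissue moved as well. Of 6 enamel organ genes, 5 were lower in all 24 libraries, 3 of these at least 4-fold lower, and 1 was at least 4-fold higher in mean CPM + 1. The summed level of the 8 genes of that list present in the files ran from 1.01 to 61.5 CPM after replantation, against 133 CPM in NT. Mmp20, the enamel protease that odontoblasts also make, had a log2 ratio of -3.87. Amelx, Enam and Klk4, which define enamel-forming cells, were at 0 counts in NT, and the gene that was higher was Amelx, with medians of 1.97 CPM (DR) and 1.08 CPM (IR) at day 7 and of 0.484 CPM (DR) and 0.247 CPM (IR) at day 3. Summed oral keratinocyte markers had medians of 849 CPM (DR) and 1010 CPM (IR) at day 7, 487 CPM (DR) and 567 CPM (IR) at day 3, and stood at 1160 CPM in NT, with 0 of 7 genes lower in all 24 libraries. Of 5 periodontal ligament genes, 3 were lower in all 24 libraries and 2 at least 4-fold lower, Postn (-2.47) and Aspn (-2.06), and their sum was 101 to 1410 CPM after replantation, against 3300 CPM in NT. Of 6 Schwann cell genes, 2 were at least 4-fold lower, Mbp (-2.38) and Prx (-2.09), and 1 was lower in all 24 libraries. The genes next below Dspp in the ranking were Car1, Ngp (-5.24), Ahsp (-5.12) and Slc4a1 (-4.73), genes of red cell precursors and, for Ngp, of neutrophil precursors. The part of any of these in the differences of the 10 genes was not tested.

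The next comparison set day 7 against day 3. Over both drying times, edgeR called 18.8% of all tested genes, 6.94% higher and 11.8% lower at day 7. Of the 9 tested genes, 1 was called, and it was Dlx3. Dlx3 was 2.97-fold higher at day 7 (log2 1.57, SE 0.455, 95% interval 0.63 to 2.51, edgeR adjusted p = 0.0219). Within each drying time its difference was 1.87 in DR (SE 0.651, adjusted p = 0.11) and 1.27 in IR (SE 0.637, adjusted p = 0.26). The interaction, the difference of these, was 0.59 (SE 0.891, adjusted p = 1). With DR day 3 replicates 1, 2 and 3 and IR day 3 replicates 3, 4 and 6 left out, libraries in which lipid or nasal gland genes had been high in earlier work on these counts, the Dlx3 value was 0.86 (adjusted p = 0.0485), and edgeR called 51 genes in all. The summed lipid gland genes were at 13400 to 30800 CPM in 4 of these 6 and at 27 and 14.8 CPM in IR day 3 replicates 3 and 4, while DR day 3 replicates 5 and 6, which were kept, had 4850 and 2680 CPM. Nasal gland genes were not summed here. A list of ciliated and olfactory epithelium genes summed to 406 and 501 CPM in IR day 3 replicates 3 and 4. It reached 671 CPM in IR day 3 replicate 5, which was kept, and stood at 33.4 CPM in replicate 6, which was left out. In DR day 3 that sum ran from 27.3 to 340 CPM, and NT had 46.4 CPM.

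In the fit of all 24 libraries the 9 tested genes had positive day 7 differences, with a median of 0.66, against -0.06 over all tested genes. That shared sign was lost without DR day 3 replicate 3 and IR day 3 replicate 6, where Nes was at -0.15, Barx1 at -0.19 and Lhx8 at 0.19. Without the 6 libraries named above Nes was at -0.73, Lhx8 at -0.44, Barx1 at -0.40 and Msx1 at -0.13, none of them called. Msx2 was at 1.28 (SE 0.528, adjusted p = 0.0869), Wnt10a at 1.05 (SE 0.53, adjusted p = 0.16) and Lhx6 at 1.05 (SE 0.732, adjusted p = 0.31). Wnt6, Msx1 and Lhx8 lay between 0.45 and 0.66. Nes, at 0.10 (95% interval -1.16 to 1.37), and Barx1, at 0.03 (-0.83 to 0.89), were the closest to no difference. With IR day 3 replicate 1 left out, which had the highest Wnt10a level, Wnt10a was at 1.72 (adjusted p = 0.0129) over both drying times and at 2.67 (adjusted p = 0.0452) within IR. Calls over all genes rose in that fit too. They numbered 2844 over both drying times and 402 within IR, against 2156 and 16 in the fit of all 24 libraries.

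Within DR alone, edgeR called 0.0087% of tested genes and none of the 9, while CPM ranges of day 7 and day 3 did not overlap for Dlx3 and Msx2, against 3.01% of tested genes. Msx2 there was at 2.12 (SE 0.766, adjusted p = 0.117). When IR day 3 replicate 6 was left out of the shared estimate of spread, the same Msx2 and Dlx3 differences had adjusted p-values of 0.0349 and 0.0248, and edgeR called 1420 genes in all. With DR day 3 replicate 3 left out as well, Dlx3 was at 1.62 (adjusted p = 0.0373) and Msx2 at 1.88 (adjusted p = 0.0777), and edgeR called 621 genes in all. Within IR, edgeR called 0.139% of tested genes (0.104% higher and 0.0348% lower at day 7) and none of the 9, and none of the 9 had separate ranges, against 1.15% of tested genes. For Msx2 the interaction was 1.68 (SE 1.05, adjusted p = 1), so its day 7 difference was not shown to differ between DR and IR.

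**Figure D3:**
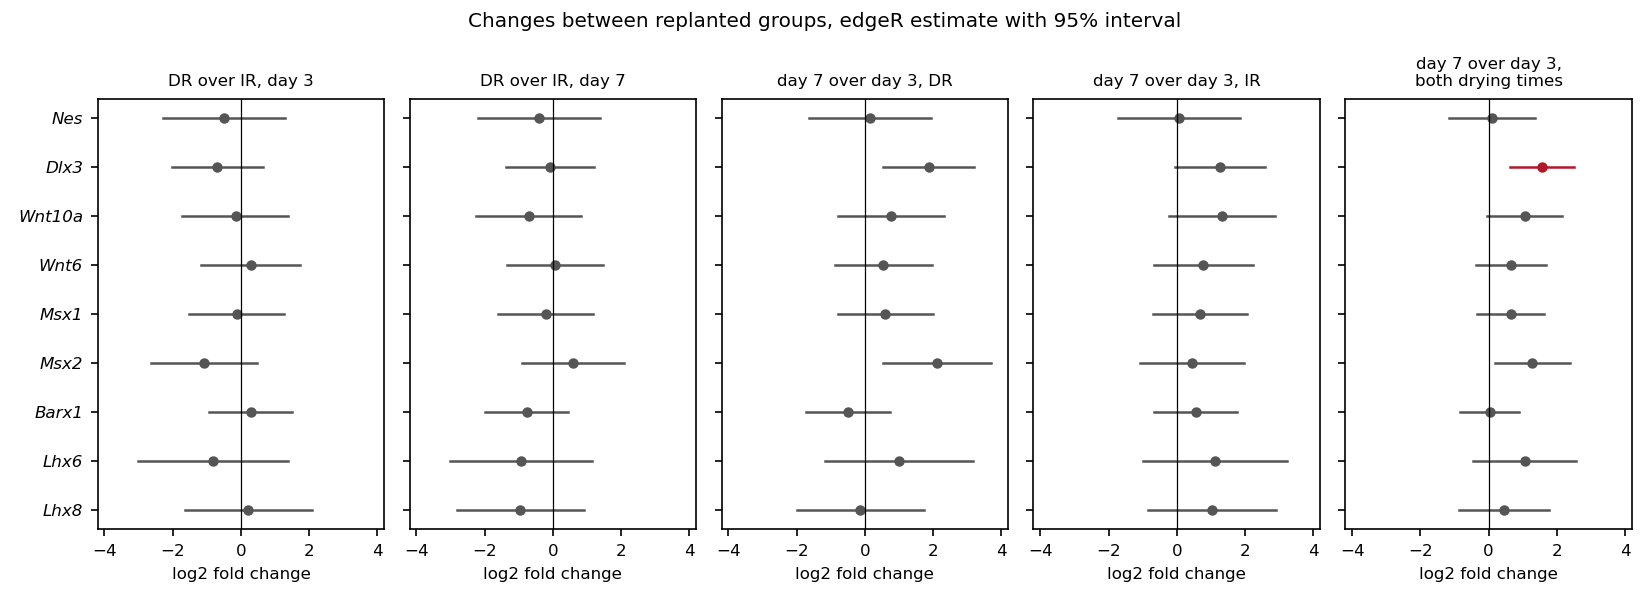
Estimated log2 fold change of each tested gene (points) with its 95% interval (lines) in 5 comparisons of replanted groups, with the called value in red. Only Dlx3 over both drying times is called, and every interval of DR over IR crosses 0.

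For day 7 over day 3 over both drying times, edgeR called 18.8% of all tested genes, 6.94% higher at day 7. Without the 6 day 3 libraries named above it called 51 genes in all, and calls on the gene lists were not counted there. With all 24 libraries, the dentin and bone matrix list had a median difference of 0.96. Of its 12 genes 6 were called, all higher at day 7. They were led by Col1a2 (1.59, SE 0.408, edgeR adjusted p = 0.0131), Smpd3, a sphingomyelinase needed for mineralization (0.91, SE 0.256, adjusted p = 0.0194), and Phex (1.28, SE 0.389, adjusted p = 0.0275). Of 11 dental mesenchyme regulators 1 was called, Klf4, a zinc-finger factor (1.16, SE 0.289, adjusted p = 0.0119). Of 10 tooth signals 1 was called, Bmp4, the signal that induces Msx1 in the tooth germ of mice (0.88, SE 0.254, adjusted p = 0.0215). The oral keratinocyte gene Krt1 was also called higher (1.98, SE 0.654, adjusted p = 0.0386), 1 of 7 on its list, as was Tnmd, a tendon and ligament gene (1.85, SE 0.443, adjusted p = 0.0104), 1 of 5 periodontal ligament genes.

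Over both drying times, some genes of other tissues were called lower at day 7, as were 11.8% of all tested genes. All 3 lipid-secreting gland genes were called lower, among them Elovl3 at -6.35 (SE 1.62, adjusted p = 0.013), as were 3 of 9 skeletal muscle genes and 1 of 6 Schwann cell genes, Sox10 (-2.74, SE 0.588, adjusted p = 0.00794). Within DR 9 of 9 muscle genes were lower at day 7 (median -4.77), while within IR 8 of 9 were higher (median 0.9). None was called within either drying time. All 7 endothelial genes were higher over both drying times (median 0.6), with 0 called. The summed gland level ran from 2.53 to 3890 CPM in DR day 7 and 4.87 to 47.7 CPM in IR day 7, against 49.8 to 23700 CPM in DR day 3 and 7.94 to 30800 CPM in IR day 3. Medians of that sum were 14.3 CPM (DR) and 20.5 CPM (IR) at day 7, and 9140 CPM (DR) and 23.4 CPM (IR) at day 3. The highest gland sums of each day 3 group, in DR day 3 replicate 3 and IR day 3 replicate 6, were in the libraries with the fewest counts of the 10 genes. The part of gland tissue in these differences was not tested.

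Drying time was compared at each day. At day 7 edgeR called 0% of tested genes for DR over IR, 206 genes having an unadjusted p under 0.05, and at day 3 it called 0%, with 313 such genes. DESeq2 called 3 genes at day 7 and 0 at day 3. Without IR day 3 replicate 6, edgeR called 576 genes at day 3 and 0 of these 9. In the fit of all 24 libraries none of the 9 genes had an unadjusted p under 0.05 at either day, and none had separate ranges, against 0.131% of tested genes at day 7 and 0.0174% at day 3.

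At day 7 the estimate was negative for 7 of the 9 genes, with a median of -0.40 and 0 over all tested genes. Lhx8 was at -0.96 (95% interval -2.82 to 0.91), Lhx6 at -0.93 (-3.01 to 1.15), Barx1 at -0.77 (-1.98 to 0.45) and Wnt10a at -0.71 (-2.24 to 0.81). Dlx3, at -0.09 (-1.38 to 1.2), and Wnt6, at 0.06 (-1.35 to 1.47), were near 0, and Msx2 was at 0.58 (-0.92 to 2.09). For 5 of the 9 genes the interval allows a difference of more than 2-fold in either direction, with a spread shared with the day 3 groups. In a fit of the 12 day 7 libraries alone the standard errors were smaller, at 0.192 in place of 0.624 for Dlx3, 0.273 in place of 0.669 for Msx1 and 0.323 in place of 0.862 for Nes. In that fit Lhx8 (-0.94), Wnt10a (-0.70) and Msx2 (0.60) had an unadjusted p under 0.05, and the edgeR adjusted p was 0.996 for each. At day 3 the estimates ran from -1.09 for Msx2 to 0.29 for Wnt6, with a median of -0.16, and had standard errors of 0.587 to 1.06.

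Same-numbered DR and IR libraries of day 7 deviated together from their group means in all 6 pairs. Lhx8 was lower in the DR library of 6 of 6 pairs, Wnt10a, Barx1 and Lhx6 in 5 of 6, and Msx2 was higher in 5 of 6. These counts were not made over all tested genes, so they have no background share. Differently numbered libraries were not compared, and no label gives a pairing. In a fit of the 12 day 7 libraries with the replicate number as a block, Barx1 was at -0.77 (SE 0.278, edgeR adjusted p = 0.68) and Lhx8 at -0.99 (SE 0.359, adjusted p = 0.68). Lhx6 was at -1.43 (adjusted p = 0.692), Wnt10a at -0.68 (adjusted p = 0.691) and Msx2 at 0.61 (adjusted p = 0.684). No gene of all tested was called in that fit. The related lists gave no call for drying either. Their smallest p-values at day 7 were those of Dlx1 (-1.07, SE 0.807, adjusted p = 1) and Tac1 (-1.67, SE 0.87, adjusted p = 1), and at day 3 that of Smpd3 (-0.79, SE 0.362, adjusted p = 0.983). Among lists of other tissue at day 7, 7 of 9 skeletal muscle genes had an unadjusted p under 0.05 (median difference -3.14), as had 3 of 3 lipid gland genes (median 4.99), with 0 called. The summed lipid gland level was 3890 CPM in DR day 7 replicate 5 and 2.53 to 17.9 CPM in the other DR day 7 libraries, against 4.87 to 47.7 CPM in IR day 7. The summed muscle level was 43 to 335 CPM in DR day 7 and 40.1 to 2280 CPM in IR day 7, and over these 12 libraries its Spearman correlation was 0.699 with Wnt10a and 0.517 with Lhx8. The part of muscle and gland in the drying differences was not tested.

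The level of the 9 genes varied more at day 3. Summed over them, it was 72.5, 89.6 and 97.9 CPM in DR day 7 and 91.1, 102 and 141 CPM in IR day 7, with 5.11, 48.8 and 111 CPM in DR day 3 and 3.22, 43.2 and 127 CPM in IR day 3 (lowest, median, highest). NT held 275 CPM. The median SD of log2 CPM within a group was 0.606 (DR) and 0.587 (IR) at day 7, against 1.43 (DR) and 1.90 (IR) at day 3. Over all tested genes it was 0.415 (DR) and 0.412 (IR) at day 7, and 0.587 (DR) and 0.780 (IR) at day 3.

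**Figure D4:**
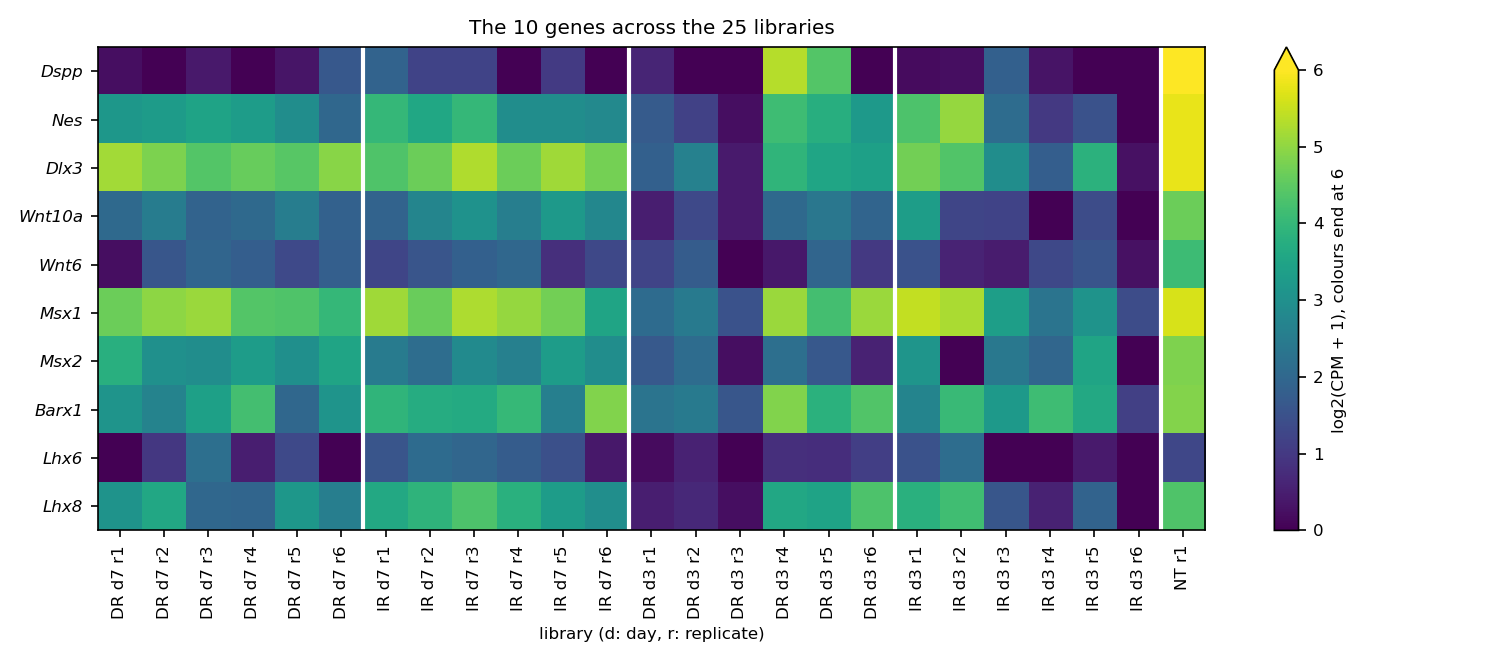
Level of each of the 10 genes as log2(CPM + 1), colours ending at 6, in the 6 libraries of DR day 7, IR day 7, DR day 3 and IR day 3 and in NT. DR day 3 replicate 3 and IR day 3 replicate 6 are dark in nearly every row, and the median within-group SD is 0.606 (DR) and 0.587 (IR) at day 7, against 1.43 (DR) and 1.90 (IR) at day 3.

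Some of the genes varied alike over the 24 replanted libraries, in which all genes share depth, scaling and the 2 low libraries, so these rank correlations are descriptions. Nes, Msx1, Lhx6 and Lhx8 varied together, with Spearman correlations of 0.729 to 0.889 between them. With group differences removed, Nes with Msx1 stood at 0.932 and Msx1 with Lhx8 at 0.842. Dlx3 varied with Wnt10a (0.803, or 0.836 within groups). Msx2 varied with Dlx3 (0.729, or 0.435 within groups) and hardly with Nes (0.0978) or Lhx8 (0.0805). The tested genes most like each of the 9 were Plod2 (0.983) and Cd93 (0.978) for Msx1, Adgrl4 (0.954) and Fscn1 (0.932) for Lhx8, and Lama4 (0.908) and Inhba (0.903) for Nes. Calhm2 (0.894) and Mfap2 (0.890) were most like Dlx3, Cpa4 (0.902) most like Wnt10a, and Ramp3 (0.883) and C1qtnf1 (0.876) most like Lhx6. For Msx2 these were Dusp14 (0.851) and Srebf2 (0.842), for Barx1 Anapc11 (0.806) and Maged2 (0.75), and for Wnt6 Marcksl1 (0.732) and Tril (0.716).

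Of the 10 genes, Lhx8 and Msx1 followed the summed endothelial markers most closely, at 0.927 and 0.919 over 24 libraries and 0.874 and 0.839 over the 12 of day 7. Msx2 stood at 0.178 with that list over 24 libraries and at -0.671 over day 7. Msx1 was about as close to the tooth signal (0.939), periodontal ligament (0.923) and dental mesenchyme regulator (0.916) lists. Over day 7 these values for Msx1 were 0.832, 0.923 and 0.839. Lhx8 stood at 0.899 with tooth signals, or 0.79 over day 7. Wnt10a and Dlx3 were the genes most like the oral keratinocyte list, at 0.737 and 0.677, or 0.573 and 0.587 over day 7. Dlx3 stood at 0.795 with the dentin and bone matrix list over 24 libraries and at -0.00699 over the 12 of day 7. Dspp stood at 0.0929 with that list and at 0.525 with the enamel organ list, or -0.167 and 0.157 over day 7. In the 2 libraries with most Dspp, DR day 3 replicates 4 and 5, the enamel organ sum was 37.6 and 21.9 CPM and the dentin and bone matrix sum 57600 and 39600 CPM, both within the range of the other day 3 libraries. The part of these tissues in the levels of the 10 genes was not tested.

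**Figure D5:**
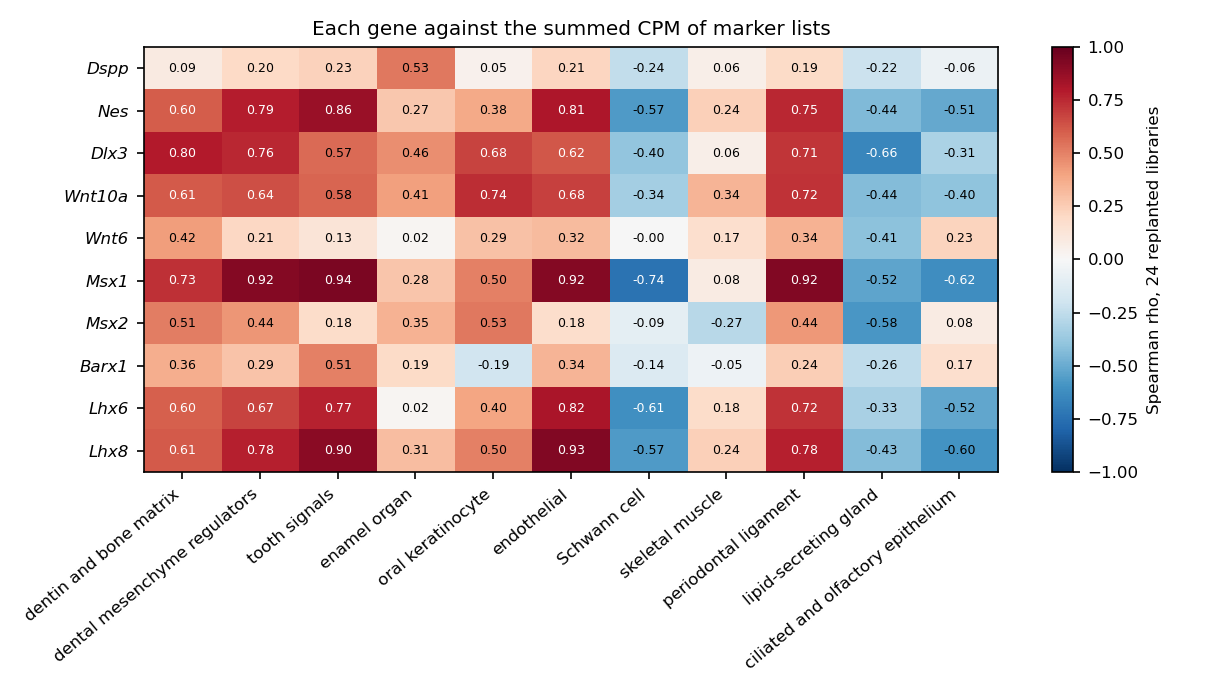
Spearman correlation over the 24 replanted libraries between the level of each of the 10 genes (rows) and the summed CPM of each marker list (columns). Msx1, Lhx8, Lhx6 and Nes are high with the endothelial and tooth signal lists, and Dlx3 is highest with dentin and bone matrix.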

How the data were processed

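RNA of rat tooth and periodontal ligament was measured in 24 replanted libraries and 1 NT library, from 500 ng of total RNA each, with the QuantSeq kit, per the labels' protocols. The authors deposited whole-number read counts per gene symbol, not normalised, 17048 entries per library. The submitters' processing notes name Bowtie2, edgeR and the builds mm10 and rn6. How each was used, with which annotation, counter and strand setting, is not given in the sources used here, so reads shared with overlapping or antisense genes cannot be told apart. Where a symbol was repeated, its entry of highest total was used.

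Counts of the 24 replanted libraries were fitted in R 4.3.3 with edgeR 4.0.16 (TMM, filterByExpr by group, robust quasi-likelihood, 4 group means, 20 residual degrees of freedom), and p-values were Benjamini-Hochberg adjusted over 11492 genes, with a threshold of 0.05. All edgeR calls share 1 estimate of spread. Only the edgeR fit was tested on simulated data, for DR over IR at day 7. Spread was set equal in all groups there, unlike in these data. NT entered no test, and its ratios use mean CPM plus 1. DESeq2 1.42.0, other scalings, filters, subsets of libraries, a replicate block and each library left out were alternatives. The replicate number was read as pairing DR with IR at day 7, where deviations of same-numbered libraries correlated by 0.214 to 0.72. At day 3 the correlations were -0.415 to 0.214, and no label gives a pairing. Differently numbered libraries were not correlated.

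The genes, lists and comparisons were chosen with earlier results of these data known. Named beside the 10 genes are, per list and comparison, up to 3 called genes of smallest p or, with none called, up to 2 of smallest p, and the 2 genes most correlated with each of the 9 tested, of which 1 is not reported here. Other genes named against NT were chosen after their values were seen.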

Additional observations from a re-analysis of the deposited data

Results flagged for a closer look

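In 40 sets of 6 libraries, 1 for each of the 10 genes in each replanted group, 6 had a library whose gap to its neighbour passed Dixon's 95% value of 0.625 of the range. Chance gives about 1 in 20 for independent, normally distributed values. Sets with few or no counts, such as those of Dspp, do not meet this, and the genes share libraries, so that rate is only a rough guide. Dspp in DR day 7 replicate 6 was the highest of its group at a log2 CPM of 1.27 (17 counts, 2.13 CPM, next 0.332 CPM). Dspp in IR day 3 replicate 3 was the highest of its group at 1.53 (14 counts, 2.59 CPM, next 0.247 CPM). Nes in DR day 7 replicate 6 was the lowest at 1.72 (24 counts, 3.00 CPM, next 6.71 CPM). Wnt6 in DR day 7 replicate 1 was the lowest at -1.11 and rested on 1 count (next 1.51 CPM). IR day 7 replicate 6 was the lowest of its group for Msx1, at 3.40 (97 counts, 10.3 CPM, next 23.9 CPM), and for Lhx6, at -0.72 (3 counts, 0.317 CPM, next 1.78 CPM).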

How the results depend on the processing

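The call of Dlx3 at day 7 over day 3, both drying times, was kept in every alternative fitted (log2 0.86 to 2.11, edgeR or DESeq2 adjusted p 0.00406 to 0.049), and with each library left out (1.44 to 1.78, adjusted p 0.0102 to 0.0391). The replicate block gave 2.11 (adjusted p = 0.049) and changed no call of the 9 genes. It joins the days by the labels' replicate numbers, but the day 7 libraries run from 2 to 7 in their deposited names, so that the block may join unrelated libraries. Same-numbered libraries of the 2 days correlated by -0.493 to 0.337. Genes of the 10 called within IR numbered 0, and 0 to 1 with each library left out. Within DR they numbered 0, with 2 in DESeq2 (Dlx3 1.88, Msx2 2.14), 1 without DR day 3 replicate 3 and IR day 3 replicate 6, an alternative chosen after seeing the data, and 0 to 2 with each library left out. Over both drying times they numbered 1, with 2 in DESeq2 (Msx2 1.29, adjusted p = 0.0422) and 1 to 2 with each library left out. Of 11486 genes in all, DESeq2 called 3039 over both drying times and 1064 within DR. With each library left out, edgeR called 1375 to 2916 genes in all over both drying times. Genes of the 10 at least 4-fold below NT numbered 5, and 2 with 5 CPM added, where the share over all tested genes was not computed. Lhx6 over NT was -0.16, and 0.05 with ribosomal RNA out of the total. The causes were not tested. Of 519 values of single genes in other fits, 4 became calls, 0 lost one and 27 uncalled ones changed sign. Of 1512 with each library left out, 4 became calls, 0 lost one and 79 uncalled ones changed sign.

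Counts over all genes moved far more. DR over IR at day 3 gave 0, 229 without those 2 libraries and 576 without IR day 3 replicate 6. At day 7 it gave 0 and 3 in DESeq2, over both days 0 and 2 in DESeq2, and the interaction 0 and 11 in DESeq2. Day 7 over day 3 within IR gave 16, 748 in DESeq2, 1 without the 6 day 3 libraries left out for gland genes (2 of which are low in lipid gland genes), 0 with the block, in 12 libraries or without the 2 low libraries, and 0 to 402 with each library left out. Within DR it gave 1, 1064 in DESeq2, 43 in 12 libraries, 621 without the 2 low libraries, 0 with the block, RLE scaling, no filter, ribosomal entries left out or without the 6 libraries, and 0 to 1420 with each left out. Over both drying times it gave 2156, 3039 in DESeq2, 686 with the block, 990 without the 2 low libraries and 51 without the 6. With each library left out it gave 1375 to 2916. Depth limits Dspp and Lhx6, which had 0 to 3 counts in many libraries, and NT has no replicate.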
